A study of Rattus norvegicus with 11 samples.

Results

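Monocytes are the white blood cells that leave the bone marrow, circulate, and enter tissues, where they can become macrophages or dendritic cells. In the kidney they are recruited from the blood during injury and chronic disease by chemokines such as CCL2, acting on the receptor CCR2, and they take up debris, present antigen and release cytokines. Lyz2, which encodes lysozyme, and Plac8 are among the genes used to mark them. The cells described here are those that carried the authors' cell type name Mono, excluding the separately named Mono/Macro cells. They numbered 8008 of 114615 cells, or 6.99%, and came from all 11 rats of the study. Gene values were not analysed here, so neither Lyz2 nor Plac8 was checked, and the name rests on the authors' clustering.

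The study used droplet single-cell RNA sequencing of kidneys from male ZSF1 rats, a strain that combines leptin receptor mutations with a hypertensive background and whose obese animals develop diabetes and kidney disease. All samples carried the same genotype label, ZSF1-LeprfaLeprcp/Crl, and the rats were 12 weeks old when obtained. The 4 lean rats (Lean) served as controls. The 4 obese rats (Obese) drank vehicle in their water, and their treatment, like that of the lean rats, is labelled none. The 3 treated obese rats (Obese+enalapril) drank enalapril, an inhibitor of angiotensin-converting enzyme, in their water. Whether vehicle was also given to the lean rats is not stated in the labels. The kidneys were perfused before digestion, which washes out blood, but a monocyte lodged in a vessel and one in the tissue cannot be told apart in these data. The stems of the sample codes each lay within 1 group, so any batch that they mark cannot be told apart from the groups.

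The libraries held 4232 to 18427 cells and 1817129 to 56007489 UMIs (unique molecular identifiers, each standing for 1 captured RNA molecule). The library Lean 2 stood apart. Its lowest cell had 193 UMIs against at least 469 in the other 10 libraries, and none of its monocytes reached 1000 UMIs. Obese+enalapril 1 was also shallow, with 64.9% of its monocytes between 500 and 1000 UMIs. Both are marked below wherever a result rested on them. In 6 of the 11 rats more cells were deposited than the 10000 loaded. Of 112971 distinct cell barcodes, 1634 (1.45%) occurred in more than 1 library, and 225 monocytes (2.81%) carried such a barcode.

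Monocytes took a larger share of kidney cells in obese than in lean rats, and in treated obese rats their share lay near that of the lean rats. The lean rats had monocyte shares of 4.64%, 2.17%, 5.54% and 1.96% of all cells. The obese rats had 7.44%, 14.8%, 11.7% and 11.4%. The treated obese rats had 4.98%, 2.98% and 4.15%. The means were 3.58% ± 1.79 (SD, n = 4), 11.3% ± 3.00 (SD, n = 4) and 4.04% ± 1.01 (SD, n = 3). Every obese rat lay above every lean and every treated rat, while the lean and treated rats overlapped. The counting error of a single share was small beside this spread: the exact Clopper-Pearson 95% interval was 1.76% to 2.66% in Lean 2, the library with the fewest monocytes (92), and 13.9% to 15.6% in Obese 2, the highest. These intervals cover counting error only.

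**Figure D1:**
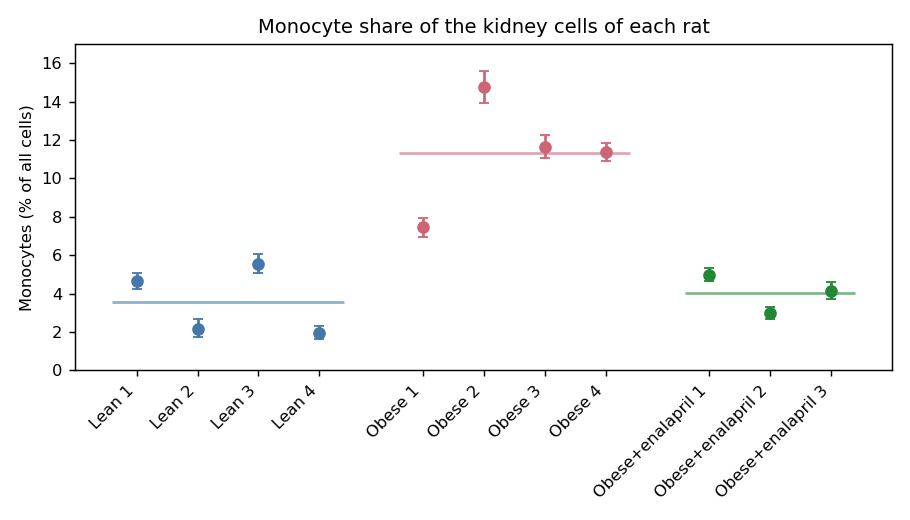
Monocytes as a percent of all cells (vertical axis) in each of the 11 rats, with exact 95% intervals for counting error as bars and the group mean as a line. The 4 obese rats sit between 7.44% and 14.8%, above the lean rats (1.96% to 5.54%) and the treated rats (2.98% to 4.98%).

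Cell numbers of 20 types were fitted together with edgeR's quasi-likelihood test, with each rat as a replicate and all of its cells as the total. Between obese and lean rats the monocyte share was higher by 1.66 ± 0.42 (SE) on the log2 scale, a 3.15-fold difference with a 95% interval of 1.71 to 5.81 (Benjamini-Hochberg adjusted p = 0.00461, edgeR). In this comparison 60% of the types were called in either direction and 30% were called higher, and in 40% the groups did not overlap. The monocyte change was the sixth largest of the 20 in absolute size, so a called change was common among the cell types. The call held in each of the 11 fits that left out 1 rat, with values of 1.45 to 1.94. Without Lean 2 and Obese+enalapril 1 it was 1.48 ± 0.45 (adjusted p = 0.00771, edgeR). The adjusted p ran from 0.000402 to 0.217 over all 30 alternatives, the highest with immune cells as the total.

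Between treated and untreated obese rats the monocyte value was lower by a factor of 0.357, or -1.48 ± 0.46 (SE) on the log2 scale, with a 95% interval from -2.45 to -0.52. It was the largest absolute value of the 20 types, and all 3 treated rats lay below all 4 obese rats, where 20% of types had groups that did not overlap. The unadjusted p was 0.00466 in the edgeR fit across all types, and the adjusted p of 0.0932 missed the threshold of 0.05. edgeR called 0 of 20 types (0%) in this comparison, with 2 types at an unadjusted p under 0.05. DESeq2 on the same counts gave -1.48 ± 0.45 with an adjusted p of 0.0204, and edgeR without Lean 2 gave an adjusted p of 0.0261 with the same value. limma on logit shares gave an adjusted p of 0.0756. An exact two-sided permutation of logit shares gave p = 0.0571, the smallest it allows, and an adjusted p of 0.286. Of the 30 alternatives of this contrast 7 were called, and the adjusted p ran from 0.0104 to 0.525. The lowest came from a setting chosen after the data were seen. This contrast and the first share the obese rats, so neither supports the other.

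Treated and lean rats differed by 0.17 ± 0.44 (SE) on the log2 scale (adjusted p = 0.830, edgeR), where 15% of types were called. Their groups overlapped, as they did in all but 30% of types. The 95% interval of the ratio ran from 0.591 to 2.14, so the data leave room for a treated share well below or about 2.14 times the lean one. Leaving out Lean 2, Lean 4 or Obese+enalapril 1 moved the value to -0.01, -0.03 or -0.01, so the 2 groups had no stable order.

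A share of all cells also moves with the number of tubule cells recovered. Counted per 100 cells that were not immune cells, monocytes numbered 5.63, 2.36, 6.89 and 2.16 in the lean rats. They numbered 10.8, 23.8, 17.9 and 17.2 in the obese rats, and 5.84, 3.59 and 5.30 among treated rats. The obese rats again lay above all others. With this denominator the obese rats were higher than the lean by 2.03 ± 0.45 (adjusted p = 0.00170, edgeR). The treated rats were lower than the obese by -1.82 ± 0.50 (adjusted p = 0.0362, edgeR). The main denominator did not give this last call. The share of types called, or without overlap, was not counted with this denominator. It shifts all immune types of a rat alike, so these calls cannot be read as particular to monocytes.

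Cell quality varied alongside the groups, and its part in the share was not tested directly. The median UMIs over all cells were 407 to 2231 in lean libraries, 1940 to 3092 in obese libraries and 1132 to 2737 in treated libraries. The median mitochondrial percent over all cells was 2.90 to 10.3 in lean, 10.5 to 15.5 in obese and 4.56 to 19.3 in treated libraries. Among cells with at least 1000 UMIs, which leaves Lean 2 with no monocyte, the obese rats were higher than the lean by 1.54 ± 0.51 (adjusted p = 0.0123, edgeR). The treated rats were lower than the obese by -1.88 ± 0.53 (adjusted p = 0.0108, edgeR). This minimum left the shallow Obese+enalapril 1 with 308 of its 894 monocytes. Their median was 876 UMIs, against 1132 over all cells of that library, so the minimum itself lowered its monocyte share. The part of this in the treated value was not tested. Among cells with under 10% mitochondrial UMIs, obese against lean gave 1.87 ± 0.56 (adjusted p = 0.00822, edgeR) and treated against obese -1.48 ± 0.61 (adjusted p = 0.133, edgeR). Without any cell whose barcode was found in another library, obese against lean gave 1.65 ± 0.43 (adjusted p = 0.00517, edgeR).

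**Figure D2:**
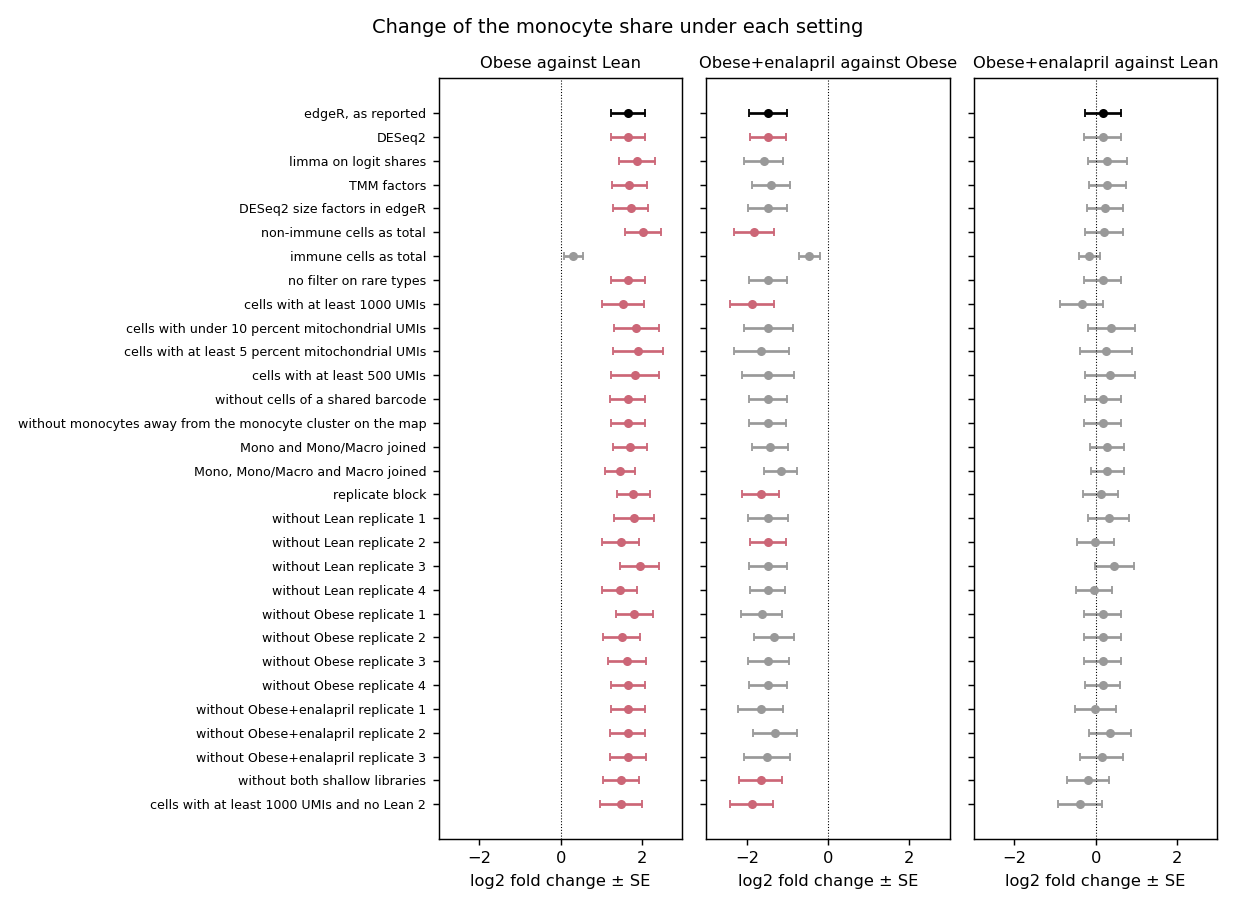
Log2 fold change of the monocyte share ± SE (horizontal axes) in the 3 contrasts under each setting of the test but the exact permutation of logit shares, which is not drawn. The reported edgeR value is black, other settings with an adjusted p under 0.05 are red and the rest grey. Obese against lean stays above 0 throughout and comes nearest to it, at 0.31, with immune cells as the total. Treated against obese stays below 0, and treated against lean lies on both sides of it.

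Immune cells as a whole also took a larger share in the obese rats, and within the immune cells the monocyte share did not pass a test. Immune cells (Mono, Mono/Macro, macrophages, T and B cells) made up 17.6%, 7.75%, 19.5% and 8.92% of cells in the lean rats. They made up 31.3%, 37.9%, 34.7% and 33.8% in the obese rats, and 14.6%, 17.1% and 21.6% among treated rats. All 4 obese rats lay above all others (obese against lean, exact two-sided permutation p = 0.0286, the smallest it allows, unadjusted). As a percent of these immune cells, monocytes were 26.3, 28.0, 28.5 and 22.0 in the lean rats. In the obese rats they were 23.8, 39.0, 33.5 and 33.6, and in the treated rats 34.0, 17.4 and 19.2. Obese 2 to 4 lay above every lean rat while Obese 1 did not, and Obese+enalapril 1, one of the shallow libraries, lay far above the other treated rats. With immune cells as the total, edgeR gave 0.31 ± 0.24 for obese against lean (adjusted p = 0.217), -0.46 ± 0.25 for treated against obese (adjusted p = 0.373) and -0.16 ± 0.26 for treated against lean (adjusted p = 0.696).

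Monocytes were the second most numerous immune type after T cells in 7 of the 11 rats. They outnumbered T cells in Obese 2, with 1041 monocytes against 996 T cells, and came behind both T cells and macrophages in Lean 4, Obese+enalapril 2 and Obese+enalapril 3. Among all types their rank by number lay between 2 and 5 in the obese rats and between 6 and 14 in the lean rats.

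**Figure D3:**
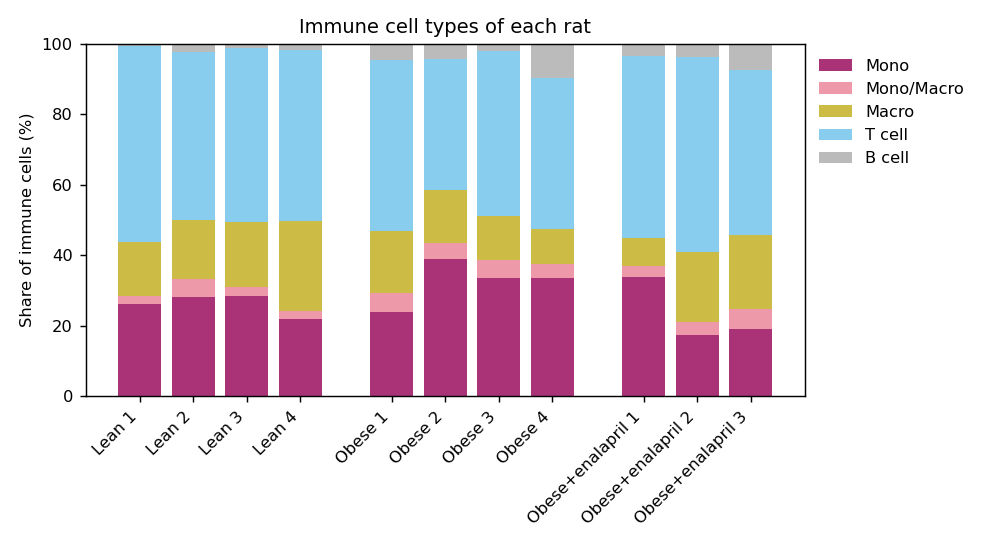
Makeup of the immune cells of each rat, as stacked percents of monocytes (Mono), Mono/Macro cells, macrophages (Macro), T cells and B cells. Monocytes make up 17.4% to 39.0%, and the groups overlap.

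B cells, Mono/Macro cells and T cells were higher in obese than in lean rats as well. Mono/Macro cells, which carry a joint name, differed by 2.12 ± 0.43 (adjusted p = 0.000750, edgeR). B cells, the antibody-forming lineage, were higher by 3.39 ± 0.54 (adjusted p = 0.000131, edgeR), and T cells by 1.13 ± 0.39 (adjusted p = 0.0195, edgeR). Macrophages, the resident phagocytes, gave 0.94 ± 0.44, which missed the threshold (adjusted p = 0.0705, edgeR). For treated against obese rats the 4 values were -1.10, -0.95, -0.73 and -0.64 in the same order, none of them past the threshold (adjusted p = 0.240, 0.337, 0.340 and 0.440, edgeR). Against lean rats, the treated rats kept a B cell value of 2.43 ± 0.55 (adjusted p = 0.00679, edgeR) beside the monocyte value of 0.17.

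Whether monocytes changed by more than a neighbouring type was tested with the ratio of cell numbers inside each rat, which does not depend on the tubule cells. The number of monocytes per macrophage was 1.73, 1.67, 1.56 and 0.864 in the lean rats. It was 1.36, 2.58, 2.67 and 3.34 in the obese rats, and 4.24, 0.870 and 0.913 among treated rats. In 3 of 4 obese rats the ratio exceeded every lean value, and the treated rats lay on both sides of the obese range, with Obese+enalapril 1 the highest of all 11. The difference between obese and lean was 0.75 ± 0.37 (SE) in log2 ratio, which did not pass an exact two-sided permutation test (p = 0.114, adjusted p = 0.143 over the 5 ratios, n = 4 and 4).

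Per T cell, the lean rats had 0.473, 0.586, 0.575 and 0.454 monocytes, the obese rats 0.489, 1.05, 0.720 and 0.782, and the treated rats 0.658, 0.314 and 0.410. Again 3 of 4 obese rats lay above the lean rats (0.50 ± 0.25, exact permutation p = 0.0857, adjusted p = 0.143). Treated against obese was -0.74 ± 0.39 (exact permutation p = 0.114, adjusted p = 0.571). The ratio to B cells went the other way. The lean values were 36.9, 13.1, 25.1 and 12.7, the obese values 5.31, 9.21, 15.8 and 3.53, and the treated values 10.3, 4.67 and 2.59. It rests on few B cells in the lean rats, which had 7 to 17 each. Obese against lean gave -1.46 ± 0.60 (exact permutation p = 0.0857, adjusted p = 0.143) and treated against lean -1.99 ± 0.69 (exact permutation p = 0.0571, adjusted p = 0.286). All 3 treated rats lay below all 4 lean rats, which was so for no other of the 5 ratios. Ratios to types outside the immune cells were not formed. The share of B cells itself differed by 2.43 between treated and lean rats, beside 0.17 for monocytes, so this ratio cannot be read as a change of monocytes.

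The ratio to Mono/Macro cells ranged from 3.41 to 12.3 and gave -0.43 ± 0.36 for obese against lean (exact permutation p = 0.257, adjusted p = 0.257). None of the 5 ratios passed the adjusted threshold in any contrast. The smallest p that these exact tests allow is 0.0286 with 4 against 4 rats and 0.0571 with 4 against 3, so no treated contrast could have passed. In obese against lean, a single ratio at 0.0286 could not have passed either after adjustment over the 5 ratios. The lack of a call therefore does not decide whether monocytes changed by more than the other immune types.

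Monocytes lay together on the authors' map of all cells. Of the 15 nearest cells to each monocyte, 99.2% on average were monocytes and 0.333% were Mono/Macro cells, and 7805 of 8008 monocytes (97.5%) had only monocytes around them. A minority of monocyte neighbours was found for 41 monocytes (0.512%). The commonest neighbour was a Mono/Macro cell for 16 of these and a proximal convoluted tubule cell (PCT) for 12. The place on the map is given as a description only, since it was made from the cells that were clustered.

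The cells of the groups were mixed within the monocyte cluster. The lean, obese and treated rats supplied 14.5%, 66.0% and 19.5% of all monocytes. Of the nearest cells to lean monocytes, 15.1% to 16.7% came from lean rats in each of the 4 libraries. For obese monocytes 66.2% to 67.4% came from obese rats, and for treated monocytes 18.8% to 23.2% came from treated rats, with the highest value in Obese+enalapril 1. These group shares are close to those of the pool. By library, the shallow ones lay more among themselves. Neighbours from the same rat made up 3.04% in Lean 2, which supplied 1.15% of all monocytes. They made up 15.2% in Obese+enalapril 1, which supplied 11.2%. In the other libraries these values lay closer together. Whether the map was drawn from integrated values was a step not given in the sources used here.

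RNA content of monocytes was in the middle of the range of cell types, with rank 12 of 19 for UMIs and rank 9 for genes. These ranks are of the mean over rats of the median per type, in the 7 obese and treated rats, where each of the 19 types had at least 20 cells. Over all monocytes the median was 2382 UMIs, with 5% of cells under 692 and 5% over 4849, and the median number of genes was 1048. The median UMIs per monocyte were 1500, 269, 2390 and 2017 in the lean rats. They were 1924, 2440, 2965 and 3059 in the obese rats, and 876, 2239 and 2158 among treated rats. The low values belong to the shallow libraries, Lean 2 and Obese+enalapril 1. In limma fits across 18 types, obese against lean gave 1.11 ± 0.63 for UMIs (adjusted p = 0.297) and 0.80 ± 0.50 for genes (adjusted p = 0.371) on the log2 scale. Treated against obese gave -0.66 ± 0.68 for UMIs (adjusted p = 0.927) and -0.52 ± 0.54 for genes (adjusted p = 0.940). limma called 0% of types for UMIs or genes in each of the 3 contrasts, with 0 to 2 types at an unadjusted p under 0.05.

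Monocytes showed more genes than T cells or macrophages within a shared window of UMIs. Among cells with 1000 to 2000 UMIs, the median number of genes per monocyte was 730, 839 and 883 in Lean 1, 3 and 4. It was 757 to 864 in the obese rats, and 634, 865 and 740 among treated rats. In each of the 10 rats with such monocytes the value exceeded that of T cells, by 54.5 to 144 genes, and that of macrophages, by 8.5 to 204 genes. The median UMIs inside this window were 1175 to 1771 for monocytes, 1261 to 1686 for T cells and 1312.5 to 1616 for macrophages. Depth was thus similar but not equal. Monocytes had more UMIs there than macrophages in all of these rats but Obese 4 and Obese+enalapril 1. They had more than T cells in all but Lean 1, Obese 1 and Obese+enalapril 1. The part of this in the gene numbers was not tested. Over pooled cells in the window, monocytes ranked 3 of 19 types, with a median of 757 genes. This comparison of types is a description, because the types were defined on the same cells. Between groups the windowed gene number gave -0.01 ± 0.09 for obese against lean on the log2 scale (adjusted p = 0.996, limma), without Lean 2.

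The mitochondrial share of UMIs was low in monocytes. It is used as a sign of cell stress or damage in dissociated tissue. It also differed between cell types, so its rank among them is not read as damage. Over the same 7 rats the mean in monocytes was 5.02%, lower than in 16 of the other 18 types. PCT/PST cells (4.66%) and Mono/Macro cells (4.34%) were lower still. Glomerular endothelial cells (5.28%), T cells (5.69%) and macrophages (6.33%) came next above, and thick ascending limb cells were highest (27.1%). The median was 3.31%, 0.982%, 3.55% and 3.20% in the lean rats. It was 6.55%, 6.34%, 3.66% and 4.97% in the obese rats, and 1.64%, 3.23% and 8.76% among treated rats. All 4 obese rats lay above all 4 lean rats, although Obese 3 did so by little, and the treated rats spread across both groups. The groups did not overlap in 22.2% of 18 types. The difference was 2.62 ± 2.11 percentage points and limma did not call it (adjusted p = 0.392), where 5.56% of types were called. An exact two-sided permutation of the 8 monocyte values alone gave p = 0.0286, the smallest it allows, without adjustment over types.

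**Figure D4:**
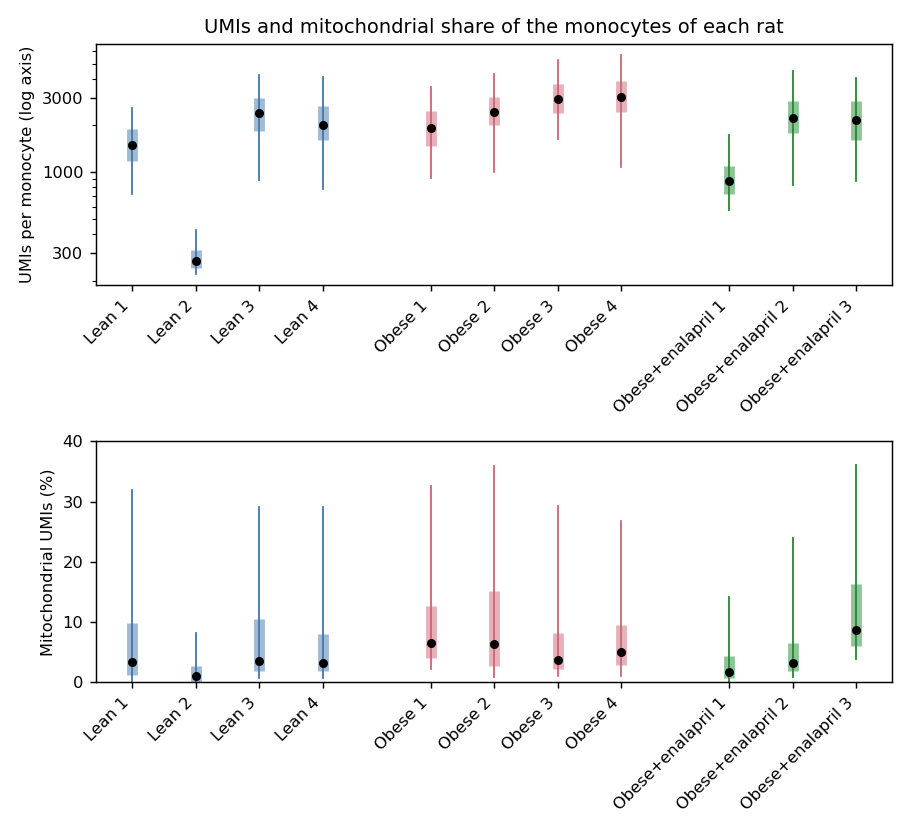
UMIs per monocyte (upper panel, log axis) and mitochondrial percent (lower panel) in each rat. Points are medians, thick bars run from the 25th to the 75th percentile and thin lines from the 5th to the 95th. Lean 2 and Obese+enalapril 1 have the fewest UMIs, and Obese+enalapril 3 has the highest median mitochondrial percent, 8.76.

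Inside each library the distribution had a long upper tail. Monocytes with under 5% mitochondrial UMIs made up 58.6%, 85.9%, 59.0% and 66.1% in the lean rats. They made up 36.8%, 42.5%, 62.5% and 50.3% in the obese rats, and 79.2%, 68.9% and 13.6% among treated rats. Obese+enalapril 3 was the lowest of all 11, and its remaining cells lay mostly between 5% and 10% (44.4%). Monocytes with 20% or more made up 0% to 13.5% in lean, 9.13% to 16.6% in obese and 1.79% to 17.9% in treated rats.

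Library depth and damage act on all cells of a library, so monocytes were also set against T cells and macrophages of the same rat. The median mitochondrial percent of monocytes was below that of T cells in 10 of 11 rats and below that of macrophages in 10 of 11. The exception in both was Lean 2. The difference to T cells was -0.429, 0.798, -0.715 and -0.827 percentage points in the lean rats. It was -0.648, -2.46, -0.373 and -0.433 in the obese rats, and -0.184, -0.344 and -0.252 among treated rats. All 3 treated rats thus lay above all 4 obese rats, but by little, with -0.344 in Obese+enalapril 2 against -0.373 in Obese 3. How often other types separated in this measure was not counted. The test could go no lower than the p it gave (0.72 ± 0.50, exact permutation p = 0.0571, adjusted p = 0.229 over 4 measures). The difference ran from 0.225 to 0.922 without 1 rat, and Obese 2 lay far below the other obese rats. Obese against lean was -0.69 ± 0.62 (exact permutation p = 0.514, adjusted p = 0.686).

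The ratio of median UMIs to T cells was 0.918, 0.820, 0.986 and 0.890 in the lean rats. It was 1.00, 1.05, 0.962 and 0.996 in the obese rats, and 0.921, 0.938 and 1.11 among treated rats. In 3 of 4 obese rats it exceeded every lean value, a log2 difference of 0.15 ± 0.06 (exact permutation p = 0.0571, adjusted p = 0.229). Relative to macrophages the ratio ran from 0.815 to 1.31, and obese against lean gave -0.21 ± 0.19 (exact permutation p = 0.286, adjusted p = 0.571).

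The authors scored each cell for genes of the S and G2M stages of the cell cycle and called a phase from the scores. In this table a cell was called G1 when both scores were below 0 and otherwise took the stage with the larger score, with 0 exceptions over all cells. By that rule 20.9% of monocytes were called G1, 35.9% S and 43.2% G2M. Circulating monocytes are known as largely non-dividing cells, and the scores behind the calls were small. Among monocytes called S or G2M the median of the larger score was 0.0426, and 58.3% of these cells had it under 0.05. Only 6 of 8008 monocytes (0.0749%) had a score over 0.2, a level chosen after the values were seen, against 3.69% of T cells, 2.15% of macrophages and 1.99% of Mono/Macro cells. The phase calls are therefore given as the authors' calls and not as shares of dividing cells.

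The percent called G2M was 37.7, 23.9, 41.2 and 36.2 in the lean rats. It was 43.6, 42.7, 50.3 and 41.9 in the obese rats, and 43.1, 41.6 and 44.8 among treated rats. Every obese and every treated rat lay above every lean rat, and obese and treated rats overlapped. Non-overlap with the lean rats occurred in 16.7% of 18 types for the obese and 5.56% for the treated rats. limma gave 9.84 ± 3.00 percentage points for obese against lean (adjusted p = 0.0273), where 16.7% of types were called, all of them higher. Treated against lean was 8.39 ± 3.24 (adjusted p = 0.284, limma), where 0% were called and 1 type had an unadjusted p under 0.05.

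The obese call did not hold throughout. Lean 2, with a median of 269 UMIs per monocyte, was also the lowest in G2M and the highest in G1 (67.4%). The other shallow library, Obese+enalapril 1, with a median of 876 UMIs, had 43.1% in G2M, above every lean rat. The part of depth in the call was not tested directly. Without Lean 2 the difference was 6.22 ± 2.59 (adjusted p = 0.132, limma). When monocytes and all other cells under 1000 UMIs were removed it was 5.93 ± 3.28 (adjusted p = 0.281, limma). It also missed the threshold without Obese 1 (10.2, adjusted p = 0.0641, limma), Obese 3 (7.96, adjusted p = 0.164), Obese 4 (10.7, adjusted p = 0.0552) or Obese+enalapril 1 (9.84, adjusted p = 0.0591). For treated against lean the difference after this removal was 0.951 ± 3.51 (adjusted p = 0.962, limma).

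**Figure D5:**
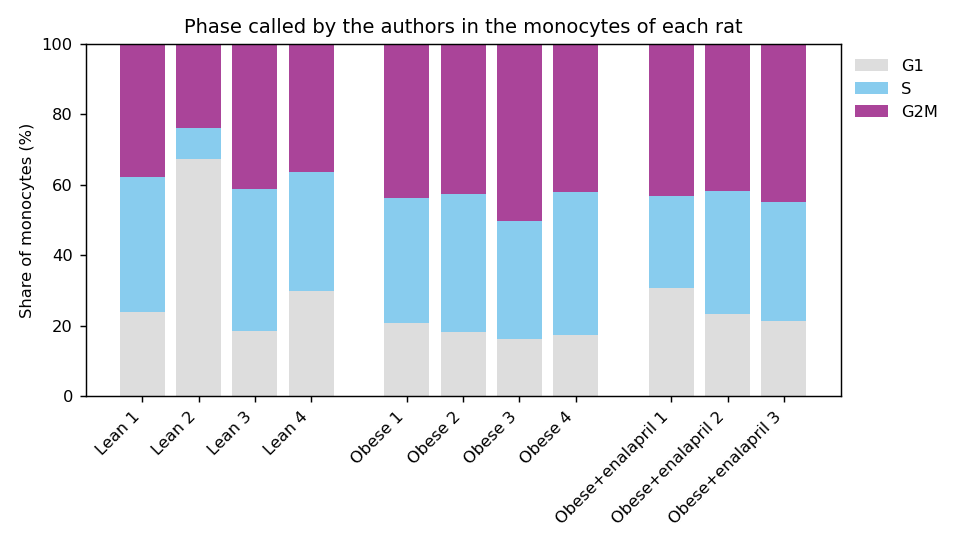
Phase called by the authors in the monocytes of each rat, as stacked percents of G1, S and G2M. The G2M share is 23.9% to 41.2% in the lean rats, 41.9% to 50.3% in the obese rats and 41.6% to 44.8% in the treated rats, and the shallow library Lean 2 has the largest G1 share, 67.4%.

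The mean G2M score of monocytes, which does not use the phase call, was 0.00584 ± 0.00445 (SD, n = 4) in lean, 0.0143 ± 0.00551 (SD, n = 4) in obese and 0.00839 ± 0.00210 (SD, n = 3) in treated rats. All 4 obese rats lay above all 4 lean rats, as in 11.1% of types, but Obese 1 (0.00967) lay above Lean 3 (0.00961) by very little. The difference of 0.00844 ± 0.00397 was not called (adjusted p = 0.172, limma), where 0% of 18 types were called and 4 had an unadjusted p under 0.05. The S share was 38.3, 8.70, 40.3 and 33.9 percent in the lean rats. It was 35.4, 39.0, 33.5 and 40.6 percent in the obese rats, and 26.2, 34.9 and 34.0 percent among treated rats. Apart from the low values of both shallow libraries these overlapped, and obese against lean gave 6.86 ± 5.46 (adjusted p = 0.566, limma), where 0% of types were called and 2 had an unadjusted p under 0.05.

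Beside the other immune cells, the G2M share of monocytes was below that of T cells in all 11 rats and above that of macrophages in 10 of 11, the exception being Lean 2. The G1 share of monocytes was above that of T cells in all 11 rats and below that of macrophages in 10 of 11. As the mean over the 7 obese and treated rats, the G2M share of monocytes, 44.0%, ranked 4 of 19 types, after T cells (59.6%), B cells (54.5%) and Mono/Macro cells (51.3%). These orders are a description and carry no test, since the types were defined on the same cells.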

How the data were processed

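A table with 1 line per cell was used, made by the authors, and it holds no gene values. Per the file headers, it gives raw counts of UMIs and of genes for each cell. The authors give the mitochondrial share as a percent, and S and G2M stage as a deposited score. Map coordinates, phase, group and 1 of 21 type names are also theirs. Build rn6, Seurat 4.3.0 and Cell Ranger 7.0.1 are listed, without roles, per the submitters' processing notes. Cell filters, doublet removal, free RNA handling and integration were steps not given in the sources used here.

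Rats were the replicates. The labels do not describe litters or cages per rat. Types with a mean of at least 10 cells per rat were fitted with edgeR 4.0.16 (quasi-likelihood, robust, no trend). The SE was derived from the F value. Medians from at least 20 cells, phase shares and mean scores were fitted with limma 3.58.1. Within-rat ratios had exact two-sided permutation tests. P-values were adjusted by Benjamini-Hochberg within a contrast, over all types or over the ratios, at 0.05. The count test was tested on simulated data. DESeq2 1.42.0, other denominators, filters on UMIs and mitochondrial percent, joined types, a replicate block and leaving out each rat were alternatives. Leaving out both shallow libraries, a minimum of 500 UMIs, and removing shared barcodes or off-cluster monocytes were chosen after seeing the data. A minimum of 1000 UMIs without Lean 2 was another such choice. R 4.3.3, Python 3.11.15 and scipy 1.17.1 were used. The types named are monocytes and the other immune types, with any type that a count concerns. The cell type, the types compared with it and the tests were chosen with earlier results of these data known.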

Additional observations from a re-analysis of the deposited data

Results flagged for a closer look

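The median mitochondrial percent of monocytes in Lean 2 was 0.982, far below the other lean rats at 3.20 to 3.55. Lean 2 is also the library with the fewest UMIs per monocyte, a median of 269, and the part of depth in this value was not tested. The median mitochondrial percent of monocytes minus that of T cells was -2.46 in Obese 2, far below the other obese rats at -0.648 to -0.373. In Obese 2 the medians were 6.34% for monocytes and 8.81% for T cells. These were 2 of 34 groups of 4 rats examined for a value far from the others, and chance marks about 1 in 20.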

How the results depend on the processing

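The monocyte share of obese against lean rats was called in 28 of 30 alternatives. It was 0.31 with immune cells as the total (adjusted p = 0.217, edgeR). An exact permutation of logit shares gave 1.88 with p = 0.0286, the smallest it allows, and an adjusted p of 0.0714 over all types. With p at this floor, the adjusted value depended on how many types reached it. Leaving out 1 rat gave 1.45 to 1.94. Treated against obese was called in 7 of 30: by DESeq2 (-1.48), with non-immune cells as the total (-1.82), with at least 1000 UMIs (-1.88, also without Lean 2), without both shallow libraries (-1.67), without Lean 2 alone and with the replicate block. Leaving out 1 rat gave -1.66 to -1.31, with adjusted p from 0.0261 to 0.525 (edgeR). Treated against lean turned to -0.16 with immune cells as the total, -0.34 with at least 1000 UMIs, -0.38 with that and no Lean 2, and -0.19 without both shallow libraries, and ran from -0.032 to 0.46 without 1 rat. The cause was not tested.

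The labels tie the replicate numbers to no shared litter, batch or day, and the numbers were not treated as pairs because the correlation of deviations was not over 0.1 in every same-numbered pair. Over 10 such pairs it ran from -0.472 to 0.513, with 5 over 0.1. Of the 11 rats, 8 correlated best with their own number, a hint of pairing from the data and not from the design. With the replicate block the shares gave 1.79 (adjusted p = 0.00959), -1.67 (adjusted p = 0.0463) and 0.12 (adjusted p = 0.781, edgeR) for obese against lean, treated against obese and treated against lean. The block changed no other call.

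In the other measures of monocytes, ranges are over fits without 1 rat. Median UMIs of treated against lean ran from -0.26 to 0.90 and genes from -0.29 to 0.59 (log2). In the window of 1000 to 2000 UMIs, genes gave -0.00791 for obese against lean and -0.14 for treated against lean. Mitochondrial percent of obese against lean, 2.62, passed only as an exact permutation of monocytes alone (p = 0.0286, not adjusted over types). It was 0.613 without both shallow libraries and -2.95 to 0.613 without 1 rat for treated against obese, and -0.325 to 3.23 for treated against lean. The S share of obese against lean was -0.333 without both shallow libraries, -1.53 with at least 1000 UMIs and -0.333 to 10.2 without 1 rat. For treated against lean it was -3.06, -6.46 and -5.80 to 4.72. The G2M share of obese against lean was 6.22 without both shallow libraries, 5.93 with at least 1000 UMIs and 6.22 to 12.0 without 1 rat. It ran from -2.36 to 0.430 for treated against obese and from 4.77 to 10.5 for treated against lean, called only without Lean 3 (adjusted p = 0.0343, limma). For treated against lean the mean S score ran from -0.00397 to 0.000893, and the mean G2M score was -0.00255 with at least 1000 UMIs.

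Log2 monocytes per macrophage of treated against lean were -0.14 with at least 1000 UMIs and -0.66 to 0.49 without 1 rat, and per T cell -0.53 to 0.00288. Per Mono/Macro cell, treated against obese ran from -0.77 to 0.0983. Mitochondrial percent minus T cells, treated against lean, was -0.669 with means and -0.145 to 0.397 without 1 rat. Minus macrophages, obese against lean ran from -0.401 to 0.938. Log2 UMIs of treated against obese ran from -0.0446 to 0.0867 relative to macrophages and from -0.107 to 0.0305 relative to T cells. Depth limits Lean 2, which has 92 monocytes and none with 1000 UMIs. In the settings with at least 1000 UMIs, Obese+enalapril 1 kept 308 of its 894 monocytes.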
